A study of Rattus norvegicus with 4 samples.

Results

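The genes described are 8 that encode enzymes deciding the fate of pyruvate and lactate in rat skeletal muscle. They are the lactate dehydrogenase subunit genes Ldha and Ldhb, the pyruvate dehydrogenase complex genes Pdha1, Pdhb, Dlat and Dld, and the pyruvate dehydrogenase kinase genes Pdk1 and Pdk2. They were chosen by name, through the match of each probe's accession to a gene symbol, and all 8 were found and tested among 13326 genes or unnamed accessions with measurable signal, of 26624 on the array. RNA came from skeletal muscle of male rats aged 15 weeks and was measured on 4 one-colour arrays. They comprise 1 array of an exercised SPORTS rat, 1 array of a sedentary SPORTS rat and 2 arrays of wild type (WT) rats, which the study's design calls sedentary while the sample labels leave their exercise state unstated. SPORTS is a hyperactive mutant rat on the Wistar background, and the WT rats were also Wistar. Neither the muscle sampled nor the kind of exercise is named. Whether the WT arrays came from separate animals is not stated either, so each p-value reflects only how far these arrays spread, which may be technical.

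Pyruvate, the end product of glycolysis, has several fates in muscle. Lactate dehydrogenase, a tetramer of A and B subunits, interconverts pyruvate and lactate in the cytosol; the A subunit predominates in glycolytic fast fibres, and the B subunit in heart and oxidative slow fibres. The pyruvate dehydrogenase complex in the mitochondrial matrix commits pyruvate to acetyl-CoA, and its kinases switch it off by phosphorylating the subunit that Pdha1 encodes, while phosphatases switch it back on.

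The lactate dehydrogenase genes and Pdk1 showed the largest differences, and their promoters are printed here because on the exercised SPORTS array Ldha was higher, and Ldhb and Pdk1 lower, than on every other array. The sequences are the 250 bases upstream of the annotated start of each gene, 5′ to 3′ on the gene's own strand, from RefSeq on assembly GRCr8: chr1:106507842-106508091 on the plus strand for Ldha, chr4:177177409-177177658 on the minus strand for Ldhb and chr3:77113264-77113513 on the plus strand for Pdk1. Capitals mark matches on either strand to ACGTG, a form of the core of the hypoxia response element, and to GGGCGG, the GC box. Other forms of that core were not searched for and are not marked.
Ldha promoter: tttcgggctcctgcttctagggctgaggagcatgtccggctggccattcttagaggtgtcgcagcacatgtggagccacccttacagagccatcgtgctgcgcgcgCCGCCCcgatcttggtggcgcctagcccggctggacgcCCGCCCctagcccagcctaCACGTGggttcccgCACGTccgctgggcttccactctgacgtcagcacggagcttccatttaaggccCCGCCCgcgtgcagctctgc
Ldhb promoter: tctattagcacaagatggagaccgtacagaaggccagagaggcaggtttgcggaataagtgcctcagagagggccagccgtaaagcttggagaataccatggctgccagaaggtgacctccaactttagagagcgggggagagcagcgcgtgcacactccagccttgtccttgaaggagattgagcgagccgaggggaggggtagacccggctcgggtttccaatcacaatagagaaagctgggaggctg
Pdk1 promoter: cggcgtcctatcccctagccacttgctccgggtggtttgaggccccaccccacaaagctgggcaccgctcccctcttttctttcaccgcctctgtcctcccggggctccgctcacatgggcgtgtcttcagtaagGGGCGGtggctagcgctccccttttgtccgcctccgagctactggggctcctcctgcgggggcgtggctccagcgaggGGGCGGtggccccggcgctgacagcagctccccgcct
The Ldha window held 3 matches to ACGTG, at 87, 86 and 73 bases upstream of the start, and 3 matches to GGGCGG, at 144, 106 and 20 bases. The first pair of ACGTG matches is one palindrome, CACGTG, the E-box, which holds ACGTG on both strands. The Pdk1 window held 2 GGGCGG matches and no ACGTG, and the Ldhb window held neither. Ldhb had a CCAAT match at 30 bases upstream. Promoters of all 8 genes had an entry among 33469 rat promoters of the same length. ACGTG was found in 4 of the 8, those of Ldha, Pdhb, Dlat and Pdk2, against 16.6% of all promoters, and CACGTG in 3 of the 8, those of Ldha, Pdhb and Pdk2, against 5.59%. GGGCGG was found in 4 of the 8, those of Ldha, Pdha1, Dlat and Pdk1, against 30.5%. The remaining motifs searched on both strands were CCAAT in 3 of 8 against 34%, TATAAA in 1 of 8 (Dld) against 12.9%, and TGACCTTGA, the response element of the oestrogen-related receptors, in 0 of 8 against 0.388%. The 8 windows held between 10 CpG dinucleotides (Ldhb and Pdhb) and 30 (Dlat), against a median of 5 over all promoters. These matches describe the letters of the windows, and a link between a motif and the array values was not tested. Of the genes that hold CACGTG, Ldha and Pdk2 were higher on the exercised SPORTS array than on the WT arrays, and Pdhb was lower.

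Values below are log2 of the array's processed signal minus that array's own 75th percentile, so a difference of 1 is 2-fold. Levels of different probes are not set against each other. All 32 values of the 8 genes carried the scanner software's flag for a signal well above background, none was saturated, and the software's own error of the signal lay between 10% and 11.0%. The exercised SPORTS array was unlike the other 3. It lay at least 2-fold from the sedentary one for 21.9% of the genes tested, while the WT arrays lay that far apart for 1.13%. The WT arrays differed by a median of 0.07 over the genes tested, and by at most 0.16 for any of the 8 genes. All 4 arrays lay on 1 slide, so no batch could be compared. Per sample, 46.0% (exercised SPORTS) and 50.3% (sedentary SPORTS) of the probes were well above background, against 48.7% and 48.9% on the WT arrays.

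**Figure D1:**
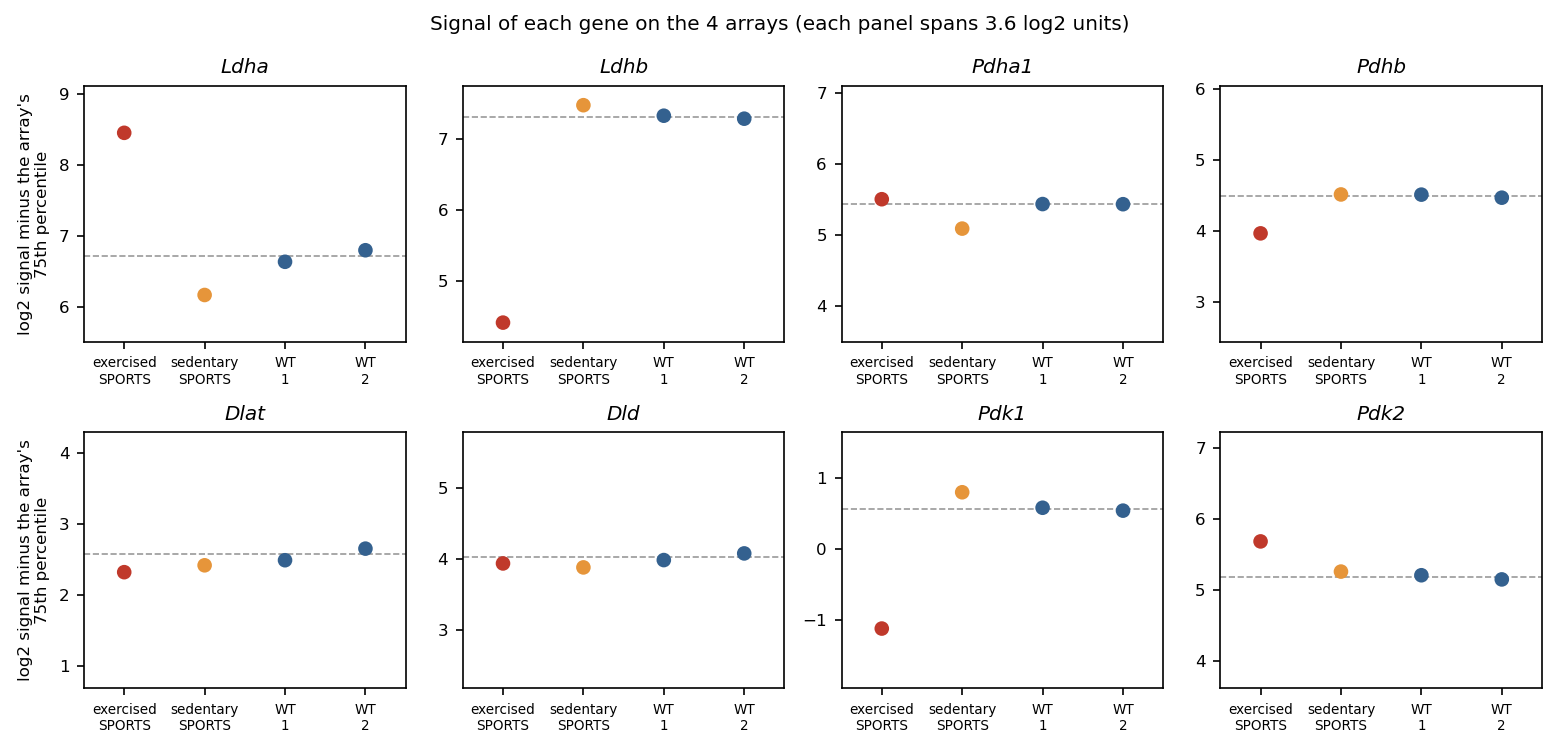
Level of each of the 8 genes on each array, as log2 signal minus the array's 75th percentile, with 1 point per array and a dashed line at the mean of the 2 WT arrays; every panel spans the same 3.6 log2 units. The exercised SPORTS point of Ldha lies far above, and those of Ldhb and Pdk1 far below, the other 3 arrays, while the points of Dlat and Dld lie close together.

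Ldha encodes the A subunit of lactate dehydrogenase, the form associated with making lactate from pyruvate. Its level was 8.45 (exercised SPORTS) and 6.17 (sedentary SPORTS), against 6.63 and 6.80 on the WT arrays. The exercised SPORTS array was the highest of the 4 and the sedentary one the lowest, with the WT arrays between them. Ldha rose on the exercised SPORTS array by 1.73 ± 0.10 (standard error) against WT, or 3.33-fold (adjusted p = 0.00598, limma). That fit has 3 groups and 1 residual degree of freedom, which comes from the WT pair. Each lone SPORTS array was thus assumed to vary as the WT pair did. limma also draws each gene's variance toward a value pooled over all genes tested. The standard errors and p-values therefore do not rest on the gene's own WT spread alone. On the sedentary SPORTS array the difference from WT was -0.55 ± 0.10 (adjusted p = 0.0798, limma), which missed the threshold of 0.05. Between the SPORTS arrays Ldha was 4.86-fold higher on the exercised one, a difference of 2.28 that has 1 array on each side and no replicate check. Of the genes tested, 221 had a greater difference upward in that comparison.

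Ldhb encodes the B subunit, the form associated with oxidising lactate back to pyruvate. Its level was 4.42 (exercised SPORTS) and 7.48 (sedentary SPORTS), against 7.33 and 7.29 on the WT arrays. The exercised array was low, and the other 3 lay within 0.19 of each other. Ldhb fell by 2.89 ± 0.07 on the exercised SPORTS array against WT, to a level 7.42-fold lower (adjusted p = 0.00424, limma). On the sedentary SPORTS array it differed by 0.17 ± 0.07 (adjusted p = 0.193). Between the SPORTS arrays it was 8.34-fold lower on the exercised one, and 172 of the genes tested had a more negative difference.

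The subunit genes of lactate dehydrogenase thus changed in opposite directions on the exercised SPORTS array. The difference of Ldha minus that of Ldhb was 5.34 on the log2 scale between the exercised and the sedentary SPORTS array, an unequal change of 40.6-fold. It was 4.62, or 24.7-fold, between the exercised SPORTS and the WT arrays. Between the sedentary SPORTS and the WT arrays it was -0.72, the other way, while WT array 1 minus WT array 2 gave -0.20. This quantity does not depend on the array's scaling, since any shift of a whole array cancels in it, and it says how unequally the 2 probes changed and not which subunit was more abundant.

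On the exercised SPORTS array most markers of fibre type moved with the lactate dehydrogenase genes. The summed linear signal of 10 fast fibre genes, in multiples of each array's 75th percentile, was 3188 (exercised SPORTS) and 371 (sedentary SPORTS), against 1202 and 1222 on the WT arrays. That of 11 slow fibre genes was 447 (exercised SPORTS) and 1968 (sedentary SPORTS), against 2095 and 2041 on the WT arrays. All 10 fast fibre genes were at least 2-fold higher on the exercised than on the sedentary SPORTS array, beside 9.11% of all genes tested. Their median difference was 4.23. At least 2-fold lower were 10 of the 11 slow fibre genes, with a median of -2.31, beside 12.8% of all genes tested. Against WT, 6 of the 10 fast fibre genes were at least 2-fold higher on the exercised array, beside 8.61% of all genes tested. Myh2, a fast fibre gene, differed by -0.43 there. In the same comparison 10 of the 11 slow fibre genes were at least 2-fold lower, beside 12% of all genes tested. The sedentary SPORTS array also differed from WT in the fast fibre genes, with 6 of 10 at least 2-fold lower, beside 2.9% of all genes tested. Their median there was -2.58, while Ldha on that array differed by -0.55. The part of fibre type in the differences of Ldha, Ldhb and the other genes was not tested, and since the muscle is not named, exercise and the site of sampling cannot be told apart. In whole muscle, fewer cells of a type and less RNA per cell cannot be told apart either. Markers of other cell types also moved with the exercised array. At least 2-fold lower there than on the WT arrays were 7 of 8 fibroblast and tendon, all 5 macrophage and all 3 heart genes tested. So were 1 of 5 endothelial and 2 of 4 adipocyte genes, while 1 of 5 red blood cell genes was at least 2-fold higher. Of all genes tested, 12% were at least 2-fold lower on the exercised array than on the WT arrays, and 8.61% at least 2-fold higher. The part of these cell types in the differences of the 8 genes was not tested. The summed signal of 8 fibroblast and tendon genes was 57.3 (exercised SPORTS) and 166 (sedentary SPORTS), against 248 and 235 on the WT arrays, and that of 6 macrophage genes was 8.56 and 44.1, against 31.3 and 20.1. The sums of 6 adipocyte genes were 10.2 and 19.5 on the exercised and sedentary SPORTS arrays, against 21.3 and 26.7 on the WT arrays, those of 6 endothelial genes 11.2 and 13.8, against 11.5 and 11.9, and those of 6 red blood cell genes 136 and 106, against 180 and 210. Among the endothelial genes Cdh5, which encodes a junction protein of these cells, fell by 2.09 on the exercised array against WT. The other endothelial genes tested differed less, Emcn by -0.81, Tie1 by -0.36, Pecam1 by -0.03 and Kdr by 0.20. The sum of 6 heart genes was 146 (exercised SPORTS) and 487 (sedentary SPORTS), against 582 and 579 on the WT arrays. Nppa, Nppb and Myl7 among them were not well above background anywhere. Of the heart genes tested, Myh6 and Myl4 differed by -1.60 and -2.68 on the exercised array against WT, and Tnni3 was at least 4.30-fold lower. The slow fibre genes had a median of -2.42 there. Whether the heart list tracked heart cells or slow fibres was not tested. Of 6 liver genes only Ttr was well above background, on the sedentary SPORTS array.

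**Figure D2:**
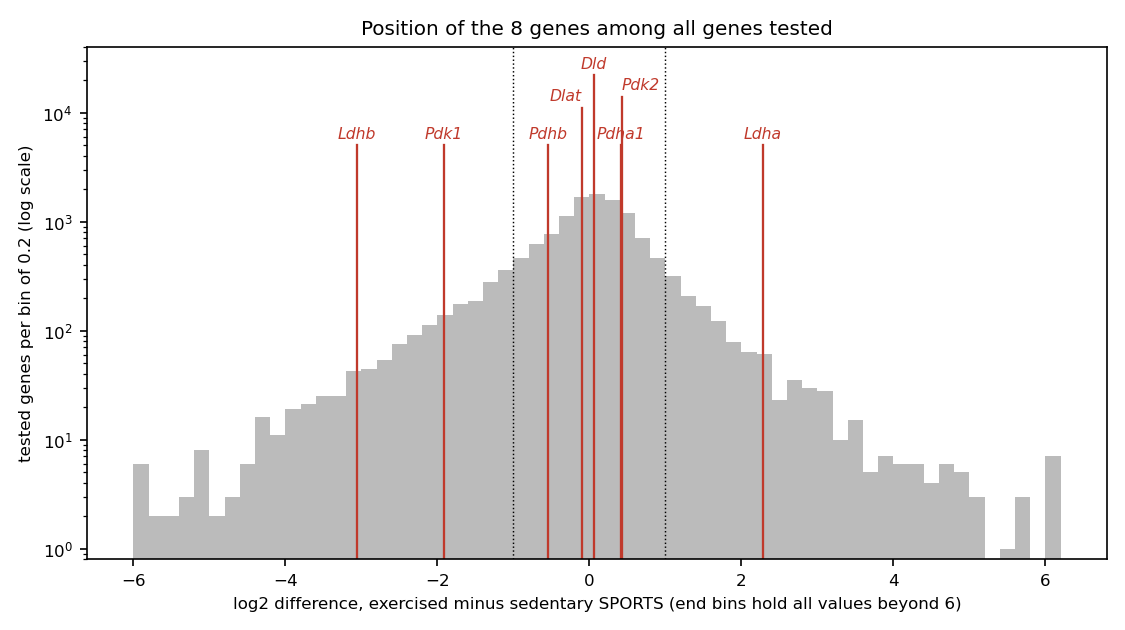
Differences between the exercised and the sedentary SPORTS array for all 13326 genes tested, as counts per bin of 0.2 log2 units on a log axis, with a red line for each of the 8 genes and dotted lines at 2-fold. Ldha at 2.28 lies in the right tail, Ldhb at -3.06 and Pdk1 at -1.92 lie in the left tail, and the other 5 genes lie inside the dotted lines.

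The pyruvate dehydrogenase complex genes differed far less. Pdha1 encodes the alpha subunit of the decarboxylating component, the subunit that the kinases phosphorylate. Its level was 5.50 (exercised SPORTS) and 5.08 (sedentary SPORTS), against 5.43 and 5.43 on the WT arrays. The sedentary SPORTS array was the low one. Pdha1 differed from WT by 0.07 ± 0.06 on the exercised SPORTS array (95% interval -0.14 to 0.27, adjusted p = 0.411, limma). It was -0.14 with quantile normalization and 0.29 with each array scaled by its median (adjusted p = 0.0373), a scaling that moved the median of all genes by 0.23. On the sedentary SPORTS array it differed by -0.34 ± 0.06 (95% interval -0.55 to -0.14, adjusted p = 0.0754). A second, dimmer Pdha1 probe read 3.54 (exercised SPORTS) and 3.23 (sedentary SPORTS), against 3.39 and 3.47 on the WT arrays, with the same array lowest.

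Pdhb encodes the beta subunit of the same component. Its level was 3.97 (exercised SPORTS) and 4.52 (sedentary SPORTS), against 4.52 and 4.47 on the WT arrays. Only the exercised SPORTS array stood out, below the others. Pdhb fell by 0.52 ± 0.07 on that array against WT, to a level 1.44-fold lower (adjusted p = 0.0166, limma), and differed by 0.02 ± 0.07 on the sedentary one (adjusted p = 0.815). With no filter on dim probes the adjusted p of Pdhb on the exercised array was 0.0550.

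Dlat encodes the acetyltransferase core of the complex. Its level was 2.32 (exercised SPORTS) and 2.42 (sedentary SPORTS), against 2.49 and 2.65 on the WT arrays. Both SPORTS arrays lay below both WT arrays, which themselves lay 0.16 apart. The difference from WT was -0.25 ± 0.10 on the exercised array (95% interval -0.60 to 0.10, adjusted p = 0.147, limma) and -0.15 ± 0.10 on the sedentary one (adjusted p = 0.375).

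Dld encodes the dihydrolipoamide dehydrogenase that the complex shares with the complexes for oxoglutarate, branched-chain keto acids and glycine. Its level was 3.94 (exercised SPORTS) and 3.88 (sedentary SPORTS), against 3.99 and 4.08 on the WT arrays. It spanned the smallest range of the 8 genes over the 4 arrays, 0.20. Dld differed from WT by -0.09 ± 0.08 on the exercised array (95% interval -0.36 to 0.17, adjusted p = 0.383, limma) and by -0.15 ± 0.08 on the sedentary one (adjusted p = 0.280). With each array scaled by its median, the first of these turned to 0.13. Between the SPORTS arrays the differences of the 4 complex genes were 0.41 for Pdha1, -0.55 for Pdhb, -0.10 for Dlat and 0.06 for Dld, none of them 2-fold, with a median of -0.02 beside 0.03 over all genes tested. The signs of Dlat and Dld are not settled, since over the alternatives they ranged from -0.22 to 0.10 and from -0.11 to 0.25.

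The kinase genes did not move together. Pdk1 encodes a kinase of the complex that is induced in low oxygen in many cell types. Its level was -1.12 (exercised SPORTS) and 0.80 (sedentary SPORTS), against 0.58 and 0.54 on the WT arrays. The exercised array was low and the sedentary one slightly above the WT pair, an order like that of Ldhb. Pdk1 fell by 1.68 ± 0.07 on the exercised SPORTS array against WT, to a level 3.20-fold lower (adjusted p = 0.00446, limma), and differed by 0.24 ± 0.07 on the sedentary one (adjusted p = 0.123). Between the SPORTS arrays it was 3.78-fold lower on the exercised one.

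Pdk2 encodes a kinase expressed in most tissues, muscle included. Its level was 5.69 (exercised SPORTS) and 5.26 (sedentary SPORTS), against 5.21 and 5.15 on the WT arrays. The exercised array was the highest, and the sedentary one was close to the WT pair. Pdk2 rose by 0.51 ± 0.07 on the exercised SPORTS array against WT, or 1.42-fold (adjusted p = 0.0191, limma), and differed by 0.08 ± 0.07 on the sedentary one (adjusted p = 0.461). With no filter on dim probes the adjusted p of Pdk2 on the exercised array was 0.0609.

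**Figure D3:**
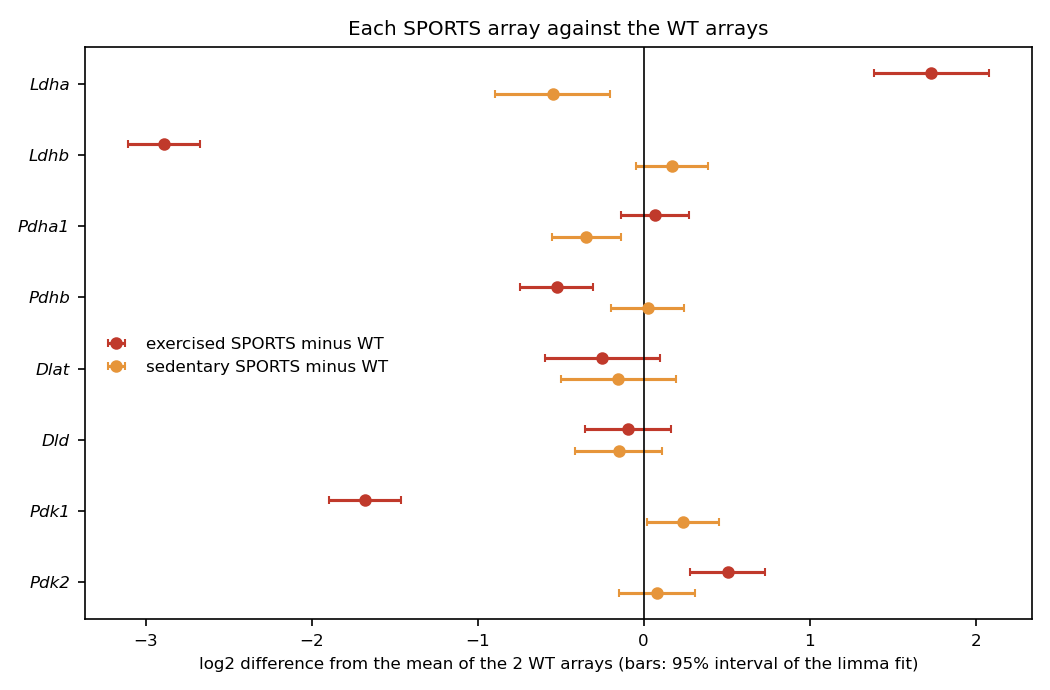
Difference of each SPORTS array from the mean of the 2 WT arrays for the 8 genes, in log2 units, with points for the fitted difference and bars for the 95% interval of the limma fit, whose spread comes from the WT pair alone. The intervals of Ldha, Ldhb and Pdk1 on the exercised array lie beyond 1 in size, and those of Dlat and Dld include 0 on both arrays.

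Counted together, 5 of the 8 genes were called on the exercised SPORTS array against WT: Ldha and Pdk2 higher, and Ldhb, Pdhb and Pdk1 lower. That is 62.5% of them, near the 53.3% of all genes tested that were called in this comparison, 27.3% higher and 26% lower, so the number of calls does not set these genes apart. Of the genes called, 3634 were higher and 3463 lower, a split of 5571 against 2505 when arrays were scaled by their median. At least 2-fold from WT were 3 of the 8, or 37.5%, 1 higher and 2 lower, against 20.6% of the genes tested, 8.61% higher and 12% lower. The median difference of the 8 was -0.17, beside 0.0030 over all genes tested, and smaller in size than the 0.23 by which median scaling moved that of all genes. On the sedentary SPORTS array 0 of the 8 were called against WT by limma, where 6.27% of the genes tested were, 2.82% higher and 3.45% lower, and 3 had an unadjusted p under 0.05, those of Ldha, Pdha1 and Pdk1, as had 4839 of the 13326 genes tested. None of the 8 was 2-fold apart there, against 5.62% of the genes tested, 2.72% higher and 2.9% lower, and the median of the 8 was -0.06 beside -0.01 over all genes tested. Both comparisons use the same WT arrays. Between the SPORTS arrays 3 of the 8 were at least 2-fold apart, Ldha higher and Ldhb and Pdk1 lower, against 21.9% of the genes tested, 9.11% higher and 12.8% lower.

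The comparison of genotypes put the SPORTS pair against the WT pair, 2 arrays against 2. Exercise differs within the SPORTS pair, so this comparison does not separate genotype from exercise. limma called 0 of the 8 genes, and 0% of all genes tested. None of the 8 had an unadjusted p under 0.05, which 982 of the genes tested had. Ldhb differed by -1.36 ± 1.17 (adjusted p = 0.774), Pdk1 by -0.72 ± 0.74 (adjusted p = 0.790) and Ldha by 0.59 ± 0.88 (adjusted p = 0.835), and the SPORTS arrays lay on opposite sides of the WT mean for each of these genes. Without the exercised array these 3 differences turned to 0.17, 0.24 and -0.55, and that of Pdhb, -0.25 with both SPORTS arrays, was 0.02. Only Ldhb was 2-fold apart in the mean, where 7.42% of the genes tested were, 2.72% higher and 4.7% lower. The pairs did not overlap for 3 of the 8 genes, Pdk2 above WT and Dlat and Dld below, against 43.7% of the genes tested, 21.4% above and 22.3% below. Pdk2 differed by 0.29 ± 0.21, Dlat by -0.20 ± 0.15 and Dld by -0.12 ± 0.14 (adjusted p = 0.772, 0.772 and 0.798).

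The other genes of pyruvate and lactate handling were taken from 5 lists with 38 genes. No probe was matched to 6 of them (Pdhx, Me3, Ldhd, Slc25a12, Slc25a13 and Gldc), and 5 were too dim to test (Pdk3, Gpt2, Me2, Ldhc and Amt), which left 27. In the list counts below, rose and fell mean called higher and lower against WT. On the exercised SPORTS array that held for 27.3% and 26% of all genes tested, as given above.

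Of the complex's partners and regulators, 4 of 6 were tested, and on the exercised SPORTS array 1 rose and 1 fell against WT, with a median of -0.17. Pdk4, the kinase gene that fasting induces in muscle, had a level of 0.72 (exercised SPORTS) and -1.51 (sedentary SPORTS), against -0.57 and -0.62 on the WT arrays. It rose by 1.32 ± 0.07 on the exercised array (adjusted p = 0.00522, limma) and fell by 0.92 ± 0.07 on the sedentary one (adjusted p = 0.0396), so the SPORTS arrays lay on opposite sides of WT. Pdp2 encodes a phosphatase that switches the complex back on. Its level was 0.03 (exercised SPORTS) and 1.87 (sedentary SPORTS), against 1.03 and 1.09 on the WT arrays. Pdp2 fell by 1.03 ± 0.07 on the exercised array (adjusted p = 0.00705) and rose by 0.81 ± 0.07 on the sedentary one (adjusted p = 0.0450), the opposite of Pdk4 on both. The calls on the sedentary array were lost with no filter on dim probes, and that of Pdp2 also with outlier spots kept. Pdp1, the other catalytic phosphatase gene and the main one in muscle, differed by -0.05 on the exercised and -0.51 on the sedentary array (adjusted p = 0.617 and 0.0600). Pdpr, the phosphatase regulatory subunit gene, was not well above background on the exercised array and was at least 1.22-fold lower there (adjusted p = 0.0506).

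Of 6 transport genes tested, 1 rose and 3 fell on the exercised SPORTS array, with a median of -0.34, or -0.24 with dim values at the floor. Slc16a3 encodes MCT4, the monocarboxylate transporter that exports lactate from glycolytic fibres. Its level was 6.36 (exercised SPORTS) and 2.43 (sedentary SPORTS), against 2.98 and 2.94 on the WT arrays, with the exercised array far above the other 3. Slc16a3 rose by 3.40 ± 0.07 (adjusted p = 0.00424, limma), or 10.6-fold. Slc16a1 encodes MCT1, which takes up lactate into oxidative fibres. Its level was -0.01 (exercised SPORTS) and 1.12 (sedentary SPORTS), against 1.29 and 1.37 on the WT arrays. Slc16a1 fell by 1.34 ± 0.08 on the exercised array (adjusted p = 0.00559), so the exporter and importer genes went opposite ways there, as Ldha and Ldhb did. Bsg, the gene of basigin, the chaperone that carries both transporters to the membrane, fell by 0.38 ± 0.08 (adjusted p = 0.0374), a call lost with median scaling and with no filter on dim probes. Slc16a7, the gene of MCT2, was not well above background on the exercised array and was at least 1.11-fold lower than on the WT arrays (adjusted p = 0.00788), a call lost with dim values at the floor, and at least 2.26-fold lower than on the sedentary SPORTS array. The mitochondrial pyruvate carrier genes Mpc1 and Mpc2 differed by -0.30 ± 0.08 and -0.18 ± 0.06 on the exercised array (adjusted p = 0.0691 and 0.113). No transport gene passed on the sedentary array.

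Of 9 other pyruvate enzyme genes, 4 were tested and all 4 rose on the exercised SPORTS array, where the list had a median of 0.88. Pkm, the pyruvate kinase gene that makes pyruvate, had a level of 5.91 (exercised SPORTS) and 3.29 (sedentary SPORTS), against 3.48 and 3.54 on the WT arrays. It rose by 2.40 ± 0.07 (adjusted p = 0.00426, limma), and its second probe differed by 2.78. Me1, the cytosolic malic enzyme gene, rose by 0.89 ± 0.06, Pc, the pyruvate carboxylase gene, by 0.87 ± 0.07 and Gpt, an alanine aminotransferase gene, by 0.55 ± 0.06 (adjusted p = 0.00721, 0.00788 and 0.0140). Gpt2, the mitochondrial alanine aminotransferase gene, was well above background only on the exercised SPORTS array and was therefore not tested. It was at least 8.08-fold higher there than on the sedentary SPORTS array and at least 7.18-fold higher than on the WT arrays. None of the 4 passed on the sedentary array, where their median was -0.02.

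The NADH shuttles, which like lactate dehydrogenase reoxidise cytosolic NADH, gave 2 genes that rose and 1 that fell of 7 tested, with a median of 0.01. Gpd1, the cytosolic glycerol phosphate dehydrogenase gene, rose by 3.99 ± 0.07 on the exercised SPORTS array against WT (adjusted p = 0.00424, limma), with a level of 6.56 (exercised SPORTS) and 2.42 (sedentary SPORTS), against 2.60 and 2.55 on the WT arrays. Gpd2, its mitochondrial partner in that shuttle, rose by 0.65 ± 0.07 (adjusted p = 0.0126). In the malate-aspartate shuttle Mdh1, the cytosolic malate dehydrogenase gene, fell by 0.68 ± 0.06 (adjusted p = 0.0106). Mdh2, Got1, Got2 and the carrier gene Slc25a11 differed by 0.03, -0.13, -0.15 and 0.01 and were not called.

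Among the genes of complexes that share Dld, 1 rose and 3 fell of 6 tested on the exercised array, and the list had a median of -0.12. Ogdh, of the oxoglutarate dehydrogenase complex, fell by 0.52 ± 0.07, and Dlst, of the same complex, by 0.29 ± 0.07 (adjusted p = 0.0168 and 0.0474, limma). The branched-chain keto acid dehydrogenase subunit genes went opposite ways, Bckdhb rising by 0.87 ± 0.07 and Bckdha falling by 0.52 ± 0.06 (adjusted p = 0.00936 and 0.0162). With no filter on dim probes the calls of Ogdh, Dlst and Bckdha were lost, and that of Dlst also with median scaling. Over all 5 lists, 17 of the 27 genes tested were called on the exercised array, 9 higher and 8 lower, which is 63% beside the background of 53.3% given above. Over the alternatives the list medians on that array ranged from -0.29 to 0.06 for the partners and regulators, from -0.18 to 0.24 for the shuttles and from -0.29 to 0.11 for the complexes that share Dld, so none of these 3 has a settled sign. The median of the transport genes ranged from -0.51 to -0.12 and that of the other pyruvate enzymes from 0.73 to 1.1.

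Between the SPORTS arrays, without a test, 4 of the 27 genes tested in these lists were at least 2-fold higher on the exercised one, beside the 9.11% of all genes tested given above: Gpd1 by 4.14, Slc16a3 by 3.93, Pkm by 2.62 and Pdk4 by 2.23 on the log2 scale. Pdp2 (-1.83), Slc16a1 (-1.13) and Slc16a7 were at least 2-fold lower, beside 12.8% of all genes tested. Gpt2, which was not among the genes tested, was at least 8.08-fold higher. The difference of Slc16a1 shrank to -0.94 with median scaling and -0.99 with normexp background correction. Genes for making pyruvate (Pkm), exporting lactate (Slc16a3) and forming it (Ldha) were thus higher on the exercised SPORTS array, and those for importing lactate (Slc16a1) and oxidising it (Ldhb) lower. The 4 genes of the pyruvate dehydrogenase complex stayed within 2-fold.

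**Figure D4:**
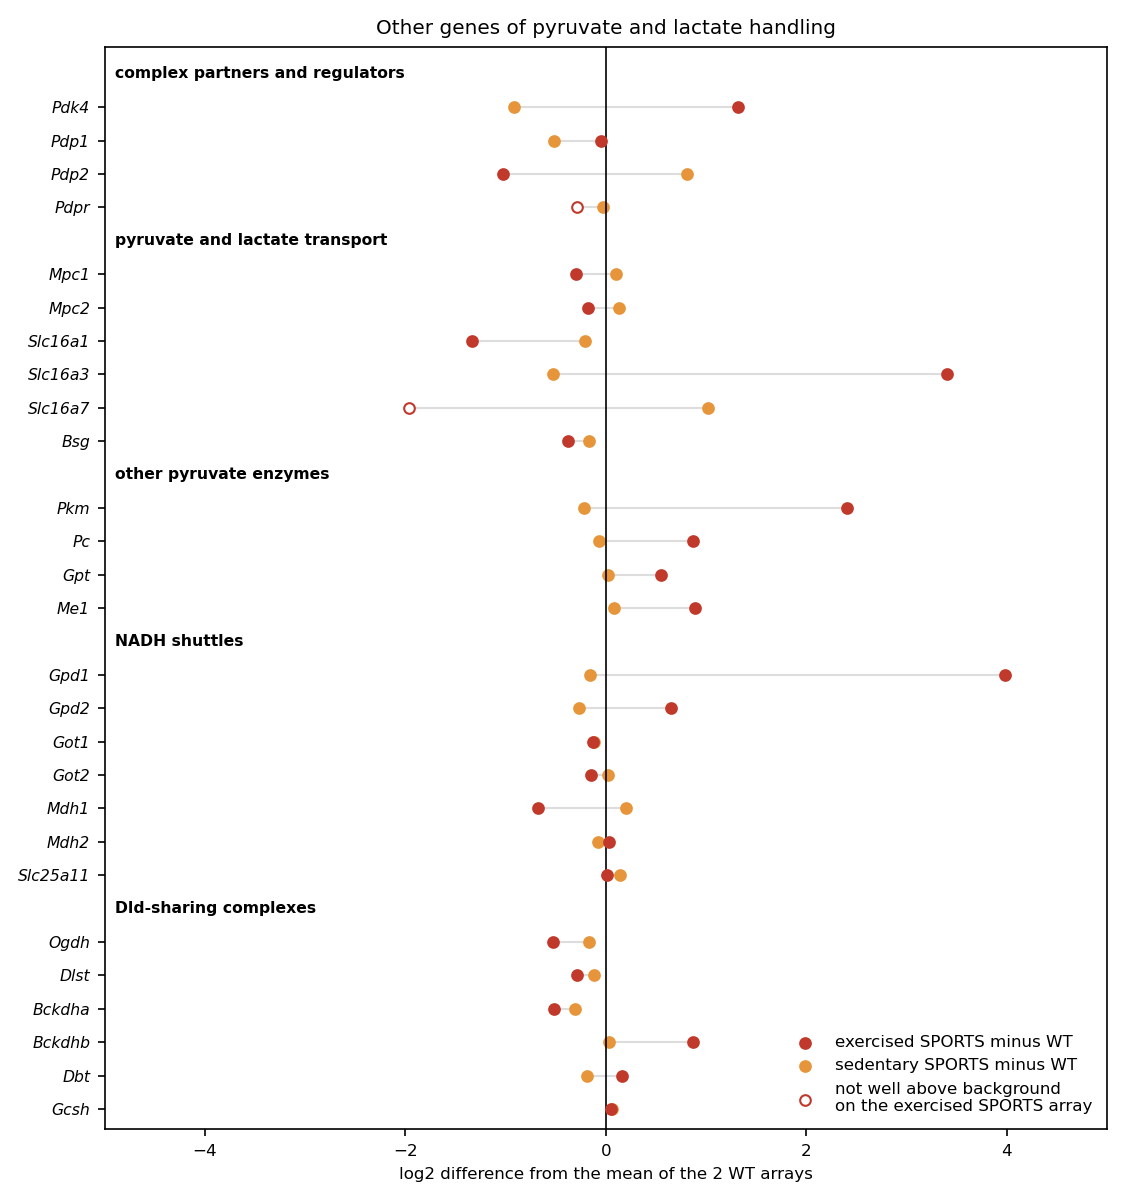
Difference of each SPORTS array from the mean of the 2 WT arrays for the 27 other genes of pyruvate and lactate handling that were tested, in log2 units and grouped by list; red points are the exercised and orange points the sedentary SPORTS array, and open points were not well above background on the exercised array. Slc16a3, Pkm and Gpd1 lie furthest to the right on the exercised array. Pdk4, Pdp2 and many of the other genes have their 2 points on opposite sides of 0.

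For each of the 8 genes, the closest patterns among 8476 other genes with a symbol were found by the root mean square distance of values centred over the 4 arrays. Closest to Ldha were Rab40b (0.030), P2rx6 (0.039) and Sox6 (0.039), and closest to Ldhb were Trpc1 (0.049), Gsta4 (0.060) and Ccn2 (0.061). Closest to Pdk1 were Adamtsl5 (0.022), Trim47 (0.035) and Fcgrt (0.038). For the genes with smaller differences many genes lie close by: the nearest were Crat for Pdha1 (0.0089), Atg10 for Pdhb (0.0036), Helz for Dlat (0.010), Zfp317 for Dld (0.0050) and Iscu for Pdk2 (0.011). With 4 arrays, 2 of them alike, these distances describe the arrays only.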

How the data were processed

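RNA from rat skeletal muscle was labelled with Cy3 and hybridised to 4 one-colour Agilent arrays on 1 slide. Agilent Feature Extraction 10.7.1.1 read the scans, per the submitters' processing notes. Of the deposited intensity values, the processed signal was used, which has the background subtracted and a spatial trend removed within each array, per the file headers. Flags for spots well above background, saturated or outlying were also used as deposited. The authors' value table is on the log2 scale. Column-to-column differences in it matched those of the values used here with r = 1 and a median offset of at most 0.00321, which fixes its scale and its direction. The centring of each probe cancels in such differences and was not checked by them. Its column medians were 0.17 for the exercised SPORTS, -0.15 for the sedentary SPORTS, 0.02 for the first and -0.02 for the second WT array.

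Control spots and outlier spots were left out, and spots of a probe were averaged. Of 30367 probes, 352 had only outlier spots on some array and were dropped. Values are the log2 processed signal less the 75th percentile of its array. Accessions, without version, were matched to a RefSeq gene table of GRCr8, which gave 59.4% of the 30015 probes 1 symbol. The probe with the highest mean stood for its gene. Genes were tested if well above background on at least 2 arrays. limma 3.58.1 in R 4.3.3 tested both directions, with Benjamini-Hochberg adjustment over all 13326 genes tested and a threshold of 0.05. The genotypes were fitted as 2 arrays against 2. A fit with 3 groups gave each SPORTS array against WT. Exercised against sedentary SPORTS had 1 array a group and no test. A ± gives the fit's standard error. Where a group has no array with a probe well above background, the difference is a bound, "at least N-fold", set by the probe's own value or, if higher, the lowest well-measured signal of the array.

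The 8 genes, the lists of other genes and of markers, and the rule for named genes were chosen with earlier results of these data known. The rule names all 8 genes with every probe, any gene of the 5 pathway lists, and for each of the 8 the 3 genes nearest in pattern. The alternatives were scaling by the median, quantile normalization, normexp with an offset of 50 on the median signal and local background, the authors' table, stricter and no filters on dim probes, a floor, the mean of a gene's probes, outlier spots kept, a variance trend and leaving out each array. Protein and probe sequences were not used here. The number of arrays limits the precision.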

Additional observations from a re-analysis of the deposited data

How the results depend on the processing

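No paired analysis was possible because the groups compared share fewer than 2 replicate numbers. The spread behind every call on a single SPORTS array is that of 2 WT arrays, so these calls compare the arrays and not SPORTS rats in general. Leaving out a WT array leaves the fit with 3 groups no residual degrees of freedom, so it gave values and no test there. All 8 genes were well above background on every array. Signal over background limited Slc16a7, Pdpr and Gpt2, and background correction by normexp moved the difference of Pdk1 between exercised SPORTS and WT to -1.55, against -1.68.

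The count of 3 of the 8 genes at least 2-fold apart between exercised and sedentary SPORTS was the same under every alternative run, and the difference of Ldha minus Ldhb ranged from 5.29 to 5.48. Against WT, Ldha, Ldhb and Pdk1 were called on the exercised array under every alternative that gave a test, with differences from 1.34 to 1.96, -3.11 to -2.67 and -1.68 to -1.45. The number of the 8 called there was 3 with no filter on dim probes, which tests 26624 genes, and 6 with median scaling, which added Pdha1 (0.29, adjusted p = 0.0373, limma) and moved the median of all genes by 0.23. On the sedentary array the number called, 0, was 1 with normexp (Ldha), and 2 when only genes well above background on all 4 arrays were tested or with a variance trend (Ldha and Pdha1). The cause was not tested. Over all genes tested, calls on the sedentary array numbered 836, against 2114 with normexp, 2170 with all 4 arrays well above background, 1609 with a floor, 2816 with a variance trend and 0 with no filter.

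In SPORTS against WT the number of the 8 called ranged from 0 to 5 when 1 array was left out, 5 being the value without the sedentary SPORTS array. With 1 SPORTS array left out, this comparison is the fit of the other SPORTS array against WT given above, and not a further check. Likewise, the fit of the exercised array against WT is unchanged without the sedentary one. Leaving out an array also turned directions. Differences ranged from -0.55 to 1.73 for Ldha, -2.89 to 0.17 for Ldhb, -0.52 to 0.024 for Pdhb and -1.68 to 0.24 for Pdk1, each at its turned value without the exercised array. Pdha1 ranged from -0.34 to 0.069, and was 0.069 without the sedentary array. With median scaling Dld was 0.0057. In exercised SPORTS against WT, Pdha1 was -0.14 with quantile normalization and Dld 0.13 with median scaling. None of the turned values was called, and the cause was not tested.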
